A study of Mus musculus with 10 samples.

Results

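The genes described here are the heavy-chain variable genes of the small mouse families IGHV4, IGHV6, IGHV13, IGHV15 and IGHV16. They were taken from bulk B cell receptor libraries of the deep cervical lymph nodes, which drain the brain, as every heavy-chain sequence whose V gene call named only genes of these families after allele numbers were removed. This gave 9 genes out of 192 V gene names: IGHV4-1, IGHV6-3, IGHV6-6, IGHV13-2, IGHV15-2 and IGHV16-1, and the rarely seen IGHV6-4, IGHV6-5 and IGHV6-7. They accounted for 11721 of 339204 heavy-chain sequences and for 9447 of 284547 productive clonotypes. A clonotype was a distinct productive combination, within a mouse, of V and J genes, the junction and a constant gene. No joint V call, which names several genes for 1 sequence, held one of the 9 genes.

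All mice were wild-type C57BL/6 animals that had received an intracranial injection of GL261, a mouse glioma cell line, and nodes were collected on day 20. Anti-CTLA-4 antibody, which blocks an inhibitory receptor of T cells, was given to 5 mice, and isotype IgG, a control antibody, to 5 others. Each mouse gave 1 library from total RNA of all its node cells, so n = 5 mice per group throughout. The tables are of antigen receptor transcripts only, so the tissue label was not checked against marker genes, and age, sex, dose and schedule were not given in the sources used here.

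An antibody heavy chain is joined in the developing B cell from 1 V, 1 D and 1 J gene, with bases trimmed and added at the joints, and the region where they meet is the third complementarity-determining region, CDR3. CDR1 and CDR2 are the antigen-contacting loops that the V gene itself encodes. A join that shifts the reading frame or makes a stop codon is non-productive, and a B cell can carry such a join on its second chromosome. Naive B cells make IgM and IgD from 1 rearrangement, and activated cells can switch to IgG, IgA or IgE and mutate the V region.

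To show how unlike the families are, the stretch from the first base of CDR1 to the last base of CDR2 was read from the deposited alignments, as the most frequent base at each position, for the 5 genes with the most clonotypes. Capitals mark CDR1 and CDR2, the strand is that of the transcript, and all genes lie on mouse chromosome 12 in the RefSeq gene table of assembly GRCm38.p6.
IGHV6-3: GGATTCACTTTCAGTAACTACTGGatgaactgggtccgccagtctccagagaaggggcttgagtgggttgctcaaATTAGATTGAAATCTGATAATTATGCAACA
IGHV6-6: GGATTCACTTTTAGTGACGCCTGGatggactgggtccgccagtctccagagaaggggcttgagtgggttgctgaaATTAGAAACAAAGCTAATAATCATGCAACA
IGHV13-2: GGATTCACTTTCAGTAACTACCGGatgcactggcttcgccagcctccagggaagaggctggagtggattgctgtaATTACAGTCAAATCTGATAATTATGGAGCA
IGHV15-2: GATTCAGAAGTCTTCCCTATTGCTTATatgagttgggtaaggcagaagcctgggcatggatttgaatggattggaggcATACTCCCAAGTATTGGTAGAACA
IGHV4-1: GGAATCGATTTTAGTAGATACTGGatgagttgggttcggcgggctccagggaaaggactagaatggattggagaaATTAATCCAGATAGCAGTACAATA
IGHV6-3 and IGHV6-6 shared 93.0% of the aligned V bases and IGHV6-3 and IGHV13-2 shared 81.4%. In both family 6 genes and in IGHV13-2 the CDR2 spans 30 bases, against 24 bases in IGHV4-1 and IGHV15-2, and the CDR1 of IGHV15-2 spans 27 bases, against 24 bases in the other 4 genes.

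The gene table lists IGHV6-3, IGHV6-4, IGHV6-5, IGHV6-6 and IGHV6-7 one after another, with IGHV13-2 separated from IGHV6-3 by IGHV12-3. IGHV15-2 stands between IGHV1-8 and IGHV1-9, IGHV4-1 between IGHV14-1 and IGHV3-1, and IGHV16-1 between IGHV14-3 and IGHV6-2. The table holds 14 genes of these families, of which the other 5 did not occur in the files: Ighv13-1, and Ighv4-2, Ighv6-1, Ighv6-2 and Ighv15-1, which it lists as pseudogenes.

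A second sequence was found under the name IGHV4-1, and it carries the finding with the most detail. It differed from the first, which equals the germline sequence the authors aligned to, at 13 fixed positions. Positions 76 to 205 of the aligned V region, counted from its first base, hold 12 of them, shown in capitals.
IGHV4-1 second form: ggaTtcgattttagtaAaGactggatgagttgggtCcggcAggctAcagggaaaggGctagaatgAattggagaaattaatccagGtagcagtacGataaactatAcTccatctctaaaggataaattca
IGHV4-1 first form: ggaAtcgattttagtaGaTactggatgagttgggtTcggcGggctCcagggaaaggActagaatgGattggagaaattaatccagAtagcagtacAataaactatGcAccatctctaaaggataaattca
Relative to the first form the differences are C16G, A79T, G92A, T94G, T111C, G116A, C121A, A132G, G141A, A161G, A171G, G181A and A183T. C16G and A79T hold by definition, since IGHV4-1 sequences with both were taken as the second form. The change G141A makes an in-frame TGA stop codon at positions 139 to 141, codon 47 of the aligned V region.

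Sequences called IGHV16-1 also carried an in-frame stop codon in these mice, at codon 67. Those with a long alignment differed from the authors' germline by 57 to 60 bases. Whether the stop codon belongs to the germline gene was not tested. It is marked in capitals in the stretch around it.
IGHV16-1: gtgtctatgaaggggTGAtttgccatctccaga

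The 10 libraries held 33568 to 63017 assembled sequences each, 159157 to 362445 deposited counts of productive heavy chains and 20951 to 41435 productive heavy-chain clonotypes. IgG took 6.97% to 79.7% of these counts per mouse, so shares of counts follow large switched clones and shares of clonotypes are the main measure below. A large clone can still add several clonotypes, 1 for each of its constant genes and junction variants. Between 0.325% and 1.42% of a mouse's clonotypes were rearrangements (V gene, J gene and junction) with a higher count in a different mouse. The tests of clonotype numbers per V name and of the 9 measures named below were repeated without them. Most descriptive values were not, among them shares of counts, J genes by productivity, CDR3 length by J gene, junction make-up, missing stretches and clones. In RNA from whole nodes, fewer cells with a gene and less RNA per cell cannot be told apart.

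Together the 9 genes made up overlapping shares of clonotypes in both groups. They held 3.26%, 3.12%, 3.50%, 3.19% and 3.45% of clonotypes in the 5 anti-CTLA-4 mice, against 3.07%, 3.23%, 3.19%, 3.57% and 3.73% in the 5 isotype mice. The groups overlapped, with means of 3.30% ± 0.167 in anti-CTLA-4 mice and 3.36% ± 0.278 in isotype mice (SD, n = 5 each). IGHV6-3 was the most used of them, with 4262 clonotypes and place 24 among 160 V names with a productive clonotype. IGHV6-6 followed with 1824, IGHV4-1 with 1455, IGHV15-2 with 1116 and IGHV13-2 with 731. IGHV6-5 had 27 clonotypes, IGHV6-4 and IGHV16-1 had 12 each and IGHV6-7 had 8, over all 10 mice.

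None of the 5 genes with enough clonotypes to test passed for a change in clonotype number with treatment. IGHV6-3 held 1.49%, 1.47%, 1.49%, 1.47% and 1.42% of clonotypes in anti-CTLA-4 mice, against 1.42%, 1.49%, 1.40%, 1.65% and 1.74% in isotype mice. IGHV15-2 held 0.385%, 0.396%, 0.515%, 0.404% and 0.385% in anti-CTLA-4 mice, against 0.390%, 0.367%, 0.376%, 0.316% and 0.417% in isotype mice. Both genes overlapped between groups, and the highest IGHV15-2 value was that of anti-CTLA-4 replicate 3. Of the 108 IGHV15-2 clonotypes of that mouse, 27 belonged to the large clone described below. IGHV6-6 averaged 0.623% ± 0.125 in anti-CTLA-4 mice and 0.651% ± 0.0581 in isotype mice, and IGHV4-1 0.525% ± 0.0655 in anti-CTLA-4 mice and 0.507% ± 0.0840 in isotype mice. IGHV13-2 averaged 0.252% ± 0.0343 in anti-CTLA-4 mice and 0.268% ± 0.0339 in isotype mice (SD, n = 5 each).

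**Figure D1:**
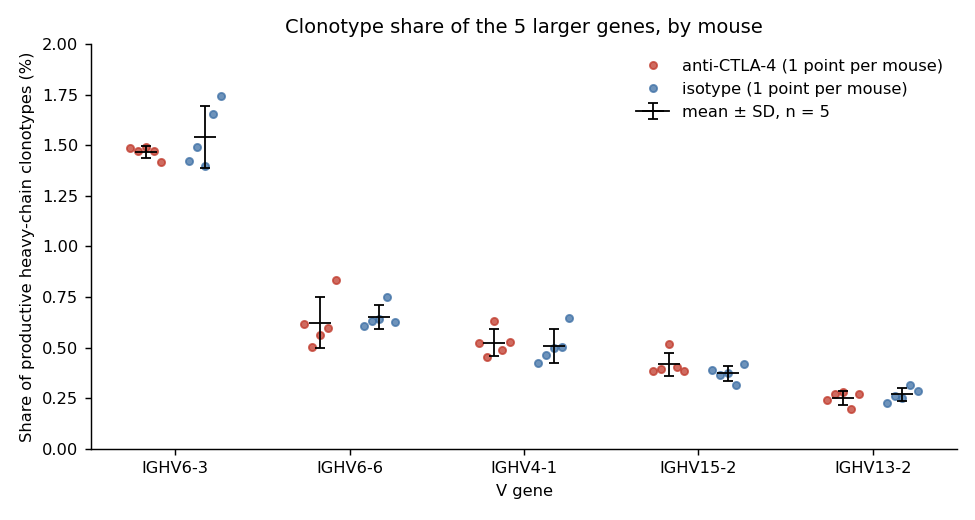
Share of productive heavy-chain clonotypes (%) held by each gene, 1 point per mouse, with anti-CTLA-4 mice left of isotype mice and black bars for mean ± SD (n = 5). IGHV6-3 lies between 1.40% and 1.74% in all 10 mice, above the other genes, and the groups overlap for every gene shown.

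The edgeR quasi-likelihood test on clonotype numbers per V name gave log2 fold changes in anti-CTLA-4 relative to isotype mice of 0.16 for IGHV15-2 (SE 0.11), 0.06 for IGHV4-1 (SE 0.11) and -0.03 for IGHV6-6 (SE 0.11). They were -0.06 for IGHV6-3 (SE 0.07) and -0.09 for IGHV13-2 (SE 0.13), and the smallest adjusted p of the 5 by edgeR was 0.633. Of 96 V names tested, 0 (0%) had an adjusted p under 0.05, 11 had an unadjusted p under 0.05, while by DESeq2 0 passed and 8 were under 0.05 unadjusted. The median log2 fold change was -0.03 over the 5 genes and 0.00 over all 96 names.

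Within IgM, 1 of 92 V names (1.09%) passed the edgeR test, and it was IGHV12-3, the neighbour of IGHV13-2 and a gene of another small family, at a log2 fold change of -1.01 (SE 0.23, adjusted p = 0.00679). This call was lost at a count of at least 2, without anti-CTLA-4 replicate 4 and without isotype replicate 2, each of which left 0 names. No gene of the described families passed in IgM, where their smallest edgeR adjusted p was 0.675. Within IgD, 0 of 76 names (0%) passed by edgeR and 0 by DESeq2, with 3 under 0.05 unadjusted by edgeR, and the smallest edgeR adjusted p of the 5 genes was 0.801. Among 9 genes of the other small families IGHV7, IGHV10, IGHV11 and IGHV12, 7 were tested over all classes and 0 passed.

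The second IGHV4-1 form was found in all 10 mice and made up 430 of 2109 IGHV4-1 sequences (20.4%). Its transcripts were mostly non-productive. Of 378 rearrangements of the second form, 299 were non-productive (79.1%, 95% interval 74.6% to 83.1%), against 195 of 1536 of the first form (12.7%, 11.1% to 14.5%). The intervals here and below are exact Clopper-Pearson intervals and cover counting error only. Of the 299, 114 had no junction and were told apart by their whole sequence, so 1 join can count more than once among them. By mouse, 82.9%, 79.4%, 69.6%, 82.8% and 88.9% of second-form rearrangements were non-productive in anti-CTLA-4 mice, against 92.0%, 68.5%, 69.4%, 87.5% and 75% in isotype mice. The first form ranged from 9.04% to 15.3% over the 10 mice, so the forms did not overlap in any mouse, while the groups overlapped for both forms.

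The 82 second-form clonotypes that the authors' table marks as productive all carried an in-frame stop codon before the junction. Its position was not read for each clonotype, but G141A, which makes the stop at codon 47, was in 310 of 312 second-form sequences compared. The mark was thus given to sequences with a stop codon in the V region. A stop codon before the junction was found in 13 of 1373 first-form clonotypes (0.947%) and in 1.18% of clonotypes of all other V genes. The gene table lists Ighv4-2, a pseudogene, as the only other gene of family 4. Whether the second form comes from it was not tested, since no sequence of that gene was used here.

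Among classed sequences pooled over mice, 75.2% of the second form were IgM, 11.9% IgD and 12.4% IgG, against 75.3%, 20.5% and 3.40% of the first form. By clonotypes marked productive, IgG made up 4 of 82 of the second form (4.88%) and 33 of 1371 of the first form (2.41%). The IgG sequences of the second form were 16, 5, 0, 7 and 24 in anti-CTLA-4 mice, against 0, 1, 0, 0 and 0 in isotype mice, so nearly all came from 4 mice and 1 anti-CTLA-4 mouse overlapped with isotype mice. This difference was not tested, and IgG takes unequal shares of these libraries, as given above. The mismatch level of IGHV4-1 also moved with the form. IGHV4-1 IgM clonotypes had 0.334 ± 0.129 V mismatches to germline per 100 bases (SD, n = 10 mice), against 0.133 in all other V genes, higher in 10 of 10 mice (exact sign-flip test, adjusted p = 0.00249). Without the second form the difference from the other V genes was -0.0636 mismatches per 100 bases (exact sign-flip test, adjusted p = 0.00249), so its direction turned. First-form IgM clonotypes alone had 0.0697 mismatches per 100 bases.

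Part of the second-form sequences lacked a stretch inside the V region. A missing stretch was seen in 95 of 430 sequences of the second form (22.1%) and in 6 of 1679 of the first form (0.357%). In anti-CTLA-4 mice it was seen in 37.8%, 17.5%, 26.1%, 37.5% and 22.1% of second-form sequences, that is in 17, 7, 6, 24 and 15 sequences. In isotype mice it was seen in 16%, 11.9%, 5.26%, 16.7% and 20.5%, that is in 4, 7, 2, 4 and 9 sequences. Every mouse held such sequences, and the groups overlapped between 17.5% and 20.5%. IGHV13-2, IGHV15-2, IGHV6-3, IGHV6-5 and IGHV6-6 had 0 to 2 such sequences each. Over 91 other V genes the median was 0.189% of sequences, and the highest value, 3.88%, was that of IGHV10-1, named here for that value after it was seen.

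The missing stretches had only 6 distinct positions, made from 3 starts and 2 ends. They began at position 89, 104 or 109 and ended at position 195 or 215. The most frequent ran from 89 to 195 and took out 107 bases in 29 sequences, followed by 104 to 195 with 92 bases in 27 sequences and 89 to 215 with 127 bases in 20 sequences. All 95 began with GT and ended with AG, the bases at the 5′ and 3′ ends of most introns; where several placements gave the same sequence, one with these ends was preferred. All 95 took out the stop codon at codon 47, and 11 of them, from 109 to 195, kept the reading frame. Whether they arose by splicing was not tested.

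The 20 bases around each start and end in the second form show the flanks, with GT and AG in capitals.
Start at 89, second form: ttcgattttaGTaaagactg
Start at 89, first form: atcgattttaGTagatactg
Start at 104, second form: gactggatgaGTtgggtccg
Start at 109, second form: gatgagttggGTccggcagg
End at 195, second form: ccatctctaaAGgataaatt
End at 215, second form: catcatctccAGagacaacg
The first form has the same GT at 89, at 104 and at 109. The changes G92A and T94G lie 3 and 5 bases after the start at 89. Other stretches began at 104 or 109, and that from 104 to 195 was found in 27 sequences from all 10 mice. By their last 80 bases the 95 sequences came from 68 rearrangements, 5 of which had more than 1 position of the missing stretch. IgM gave 68 of the sequences, IgG 16 and IgD 11. None of them has a junction in the authors' tables, and they are counted in the non-productive shares above. Without sequences that lack a junction, 70.1% of second-form rearrangements were non-productive, against 11.9% of first-form rearrangements.

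**Figure D2:**
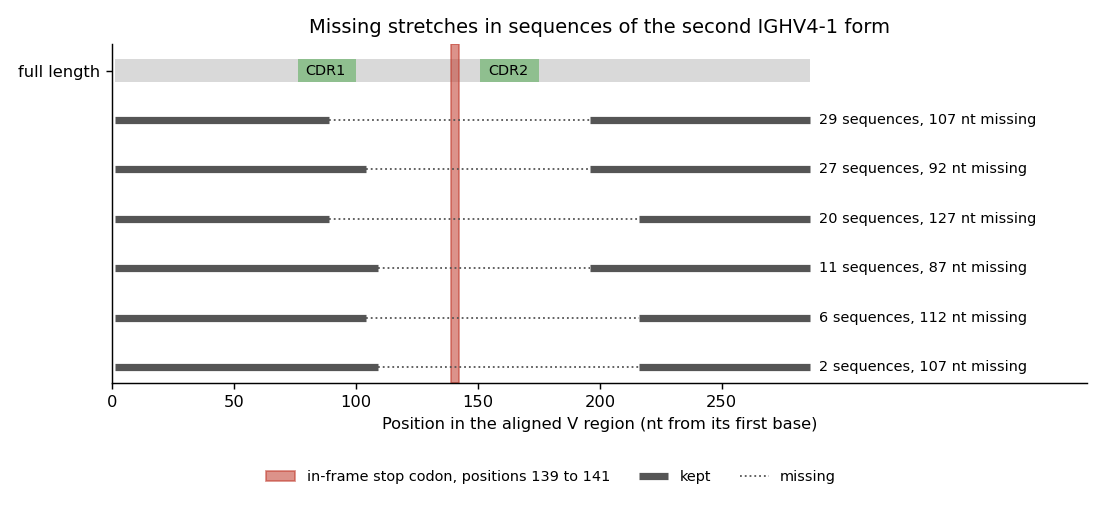
Missing stretches in sequences of the second IGHV4-1 form, along the aligned V region (bases from its first base). Each row is 1 of 6 distinct missing stretches with its number of sequences and length, kept parts as thick bars and missing parts as dotted lines, and every one spans the in-frame stop codon at positions 139 to 141.

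Non-productive rearrangements were more frequent in 3 of the genes than in the rest of the repertoire. IGHV4-1, both forms together, was non-productive in 28.3%, 29.0%, 22.8%, 28.1% and 25.2% of rearrangements of anti-CTLA-4 mice, against 26.7%, 26.5%, 22.5%, 22% and 26.5% of isotype mice. IGHV13-2 was non-productive in 16.4%, 19.4%, 28.8%, 35.2% and 14.9% in anti-CTLA-4 mice, against 12.5%, 21.7%, 26.6%, 15.9% and 19.4% in isotype mice. IGHV15-2 was non-productive in 14.7%, 20.6%, 19.2%, 19.0% and 17.2% in anti-CTLA-4 mice, against 20.5%, 22.6%, 24.1%, 24.2% and 20.4% in isotype mice. All 3 genes lay above the other V genes, whose mean was 7.61% to 7.68%, in all 10 mice, and the groups overlapped for each.

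The means over 10 mice were 25.8% ± 2.55 for IGHV4-1, 21.1% ± 7.13 for IGHV13-2 and 20.2% ± 2.94 for IGHV15-2 (SD). Each exceeded the other V genes, and IGHV6-3 lay below them at 5.48% ± 1.38 in 10 of 10 mice (exact sign-flip test over mice, adjusted p = 0.00386 for each of the 4). IGHV6-6, at 7.30% ± 1.97, did not pass (exact sign-flip test, adjusted p = 0.555). A call of this kind was common: 68 of 93 V names tested (73.1%) differed from the rest, 28 of them upward, so 4 of 5 here is near the background. Without its second form, IGHV4-1 exceeded the other V genes by 4.94 percentage points, against 18.1 with it.

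**Figure D3:**
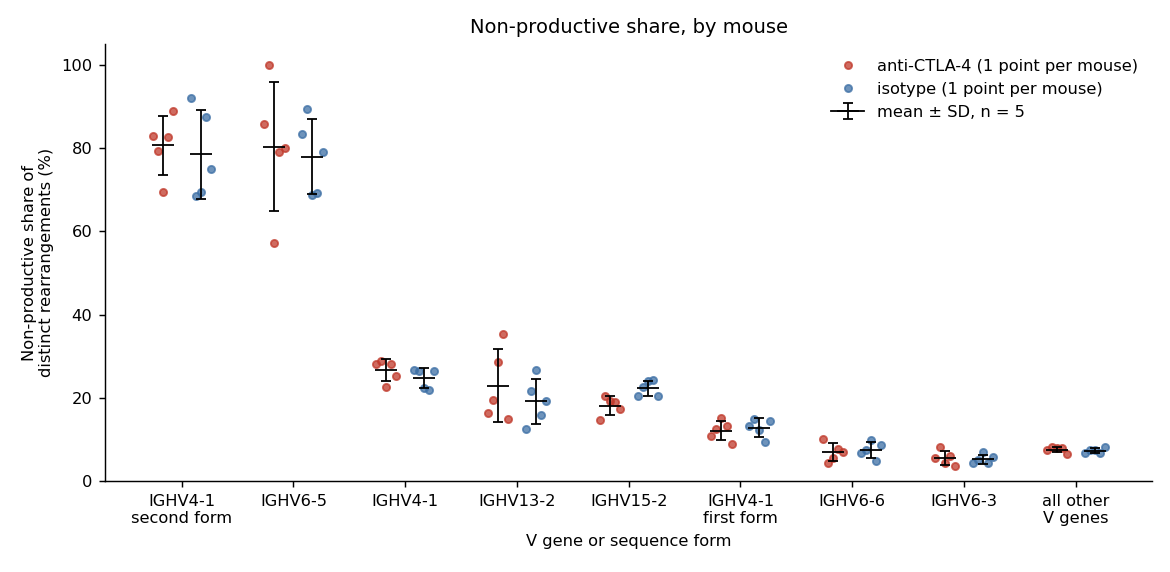
Non-productive share of rearrangements (%) for 6 genes, the 2 IGHV4-1 forms and all other V genes, 1 point per mouse, with anti-CTLA-4 mice left of isotype mice and black bars for mean ± SD (n = 5). The second IGHV4-1 form lies between 68.5% and 92.0%, above the first form in every mouse.

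The rare genes were mostly seen as non-productive rearrangements. IGHV6-5, which shares 91.9% of its V bases with IGHV6-6, was non-productive in 103 of 130 rearrangements (79.2%, 71.2% to 85.8%), with no stop codon in its V sequence. IGHV6-7 was non-productive in 16 of 24 and IGHV6-4 in 14 of 26. IGHV16-1 was non-productive in 36 of 48 (75%, 60.4% to 86.4%), and all 12 of its clonotypes marked productive carried an in-frame stop codon before the junction. Of 46 IGHV16-1 sequences with a junction, 46 carried one. IGHV16-1 sequences also differed from the authors' germline by 57 to 60 bases, with a median of 59, over 49 sequences with a long alignment, and by 3 bases in length in those 49. Its IgM and IgD clonotypes differed from germline alike, and how much of this is somatic mutation was not tested.

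Of the non-productive rearrangements of IGHV13-2, 156 of 204 were out of frame, and of those of IGHV15-2, 199 of 279. The rest had a stop codon in the junction or no junction. In IGHV6-3 124 of 244 were out of frame, and over all other V genes 55%.

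J gene use differed between these genes and, in some, between productive and non-productive rearrangements. IGHV15-2 was joined to IGHJ1 in 37.8%, 47.7%, 61.1%, 46.6% and 42.6% of clonotypes in anti-CTLA-4 mice, against 40.8%, 47.4%, 39.2%, 37.8% and 43.4% in isotype mice. The mean of 44.4% ± 6.95 exceeded the 16.2% of the other V genes in 10 of 10 mice (exact sign-flip test, adjusted p = 0.00818). The value of anti-CTLA-4 replicate 3 was the highest, and that mouse held a large IGHV15-2 clone with IGHJ1 described below. IGHV4-1 was joined to IGHJ1 in 24.9% ± 3.44 of clonotypes, also above the rest in 10 of 10 mice (exact sign-flip test, adjusted p = 0.00818).

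IGHV4-1 was seldom joined to IGHJ2, the J gene used most by other V genes. It was joined to IGHJ2 in 8.11%, 13.1%, 14.4%, 12.8% and 14.3% of clonotypes in anti-CTLA-4 mice, against 13.1%, 14.7%, 17%, 11% and 17.1% in isotype mice. The mean of 13.6% ± 2.67 lay below the 33.1% of the other V genes in 10 of 10 mice (exact sign-flip test, adjusted p = 0.00637). IGHV4-1 used IGHJ4 in 38.7% ± 3.56 of clonotypes, against 27.0% in the rest (exact sign-flip test, adjusted p = 0.00688). IGHV15-2 and IGHV13-2 also lay below the rest in IGHJ2, at 19.3% ± 4.26 and 26.2% ± 4.35, in 10 of 10 mice each (exact sign-flip test, adjusted p = 0.00637). IGHV15-2 was also below the rest in IGHJ3, at 17.1% ± 3.20, and in IGHJ4, at 19.1% ± 4.12 (exact sign-flip test, adjusted p = 0.00747 and 0.00688).

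IGHV6-3 and IGHV6-6 were joined to IGHJ3 more often than the rest, at 30.1% ± 2.43 and 32.6% ± 5.67, against 23.5% and 23.6% (exact sign-flip test, adjusted p = 0.00747 and 0.0111). Both used IGHJ4 less, at 18.5% ± 2.32 and 22% ± 3.98, against 27.2% and 27.1% (exact sign-flip test, adjusted p = 0.00688 and 0.00955). IGHV6-3 also used IGHJ1 less, at 13.6% ± 0.988, against 16.4% (exact sign-flip test, adjusted p = 0.00818). In IGHJ2 they went opposite ways: IGHV6-3 lay above the rest at 37.8% ± 2.88 in 10 of 10 mice and IGHV6-6 below it at 29.4% ± 3.32 in 9 of 10 mice (exact sign-flip test, adjusted p = 0.00637 and 0.0222). IGHV13-2 exceeded the rest in IGHJ1, at 21.7% ± 4.83, in 8 of 10 mice (exact sign-flip test, adjusted p = 0.0334), a call that was lost in 8 of 15 alternatives, 7 of which left out 1 mouse. With rearrangements of a count of at least 2 only, fewer in number, IGHV6-3 no longer passed for IGHJ1 and IGHJ2, at differences from the rest of -2.66 and 3.52 percentage points, against -2.82 and 4.88 with all. Nor did IGHV6-6 for IGHJ2, IGHJ3 and IGHJ4, at -4.15, 6.53 and -1.96, against -3.61, 9.07 and -5.07 with all. Of the 5 genes, 4 passed for IGHJ1, 5 for IGHJ2, 3 for IGHJ3 and 4 for IGHJ4, where 44.3%, 40.9%, 53.4% and 53.4% of the 88 V names tested did. The highest IGHV6-6 share of IGHJ3 was 42.8%, in anti-CTLA-4 replicate 5. In that mouse 30 of 264 IGHV6-6 clonotypes belonged to the large clone with IGHJ3 described below.

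In non-productive rearrangements, which encode no receptor, the J genes of IGHV15-2 and of the first IGHV4-1 form lay near those of the other V genes. IGHV15-2 used IGHJ1 in 480 of 1090 productive rearrangements (44.0%, 41.1% to 47.0%) and in 41 of 279 non-productive ones (14.7%, 10.8% to 19.4%). The other V genes used IGHJ1 in 16.1% of productive and 13.3% of non-productive rearrangements. The first IGHV4-1 form used IGHJ2 in 12.1% of productive (10.4% to 13.9%) and 36.4% of non-productive rearrangements (29.7% to 43.6%), where the other V genes had 33.1% and 36.5%. All second-form rearrangements marked productive carried a stop codon before the junction, while part of the non-productive ones had lost the one at codon 47 with the missing stretch. The second form used IGHJ2 in 41.8% of rearrangements marked productive (30.8% to 53.4%) and in 42.8% of non-productive ones (37.1% to 48.6%). IGHV6-3 had 37.9% and 34.4%, and IGHV13-2 25.4% and 42.2%. These shares pool rearrangements of 10 mice and are given as a description.

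**Figure D4:**
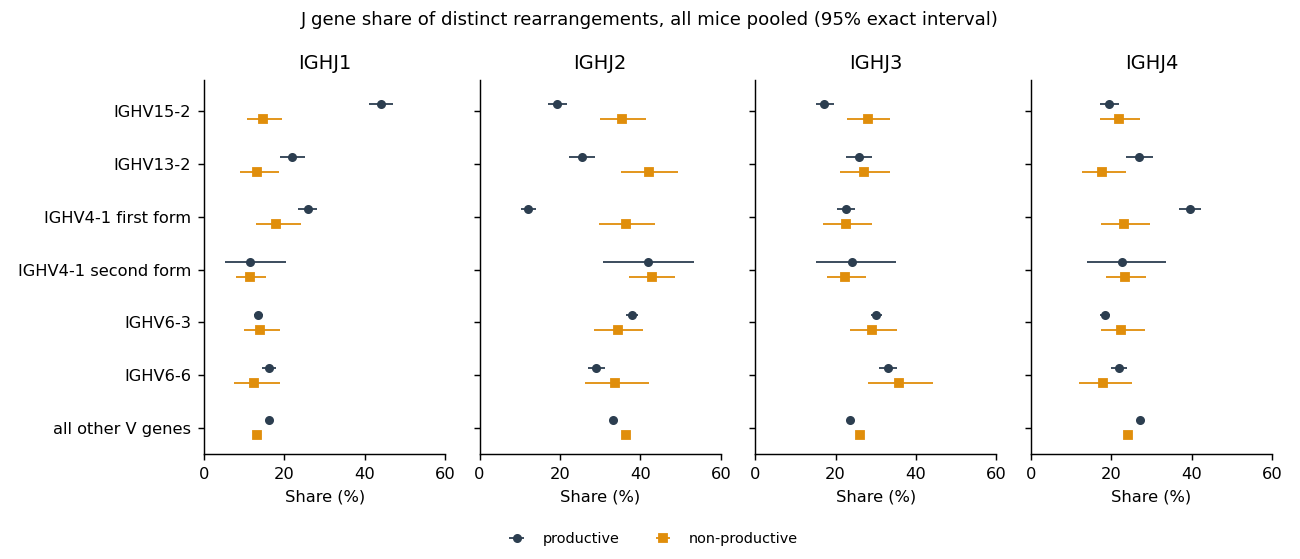
Share of each J gene (%) among productive rearrangements (circles) and non-productive rearrangements (squares), pooled over the 10 mice, with 95% exact intervals as bars. For IGHV15-2 with IGHJ1 and the first IGHV4-1 form with IGHJ2 the intervals of the 2 kinds do not overlap, and for the second IGHV4-1 form they overlap in every panel.

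CDR3 length separated family 6 and IGHV15-2 in opposite directions. IGHV6-3 clonotypes had a mean CDR3 of 9.38, 9.91, 9.73, 9.93 and 9.87 amino acids in anti-CTLA-4 mice, against 9.64, 9.69, 9.81, 9.63 and 9.73 in isotype mice. IGHV15-2 had 13.2, 12.7, 14, 12.9 and 12.5 amino acids in anti-CTLA-4 mice, against 12.5, 13.1, 13.1, 13 and 12.5 in isotype mice. The groups overlapped for both genes, while no IGHV6-3 mean reached the lowest IGHV15-2 mean. The highest IGHV15-2 mean, in anti-CTLA-4 replicate 3, includes 27 clonotypes of the large clone described below, whose CDR3 spans 17 amino acids. Against 11.8 amino acids in the other V genes, IGHV6-3 (9.73 ± 0.164), IGHV6-6 (10.3 ± 0.201) and IGHV13-2 (11 ± 0.247) were shorter and IGHV15-2 (12.9 ± 0.461) longer in 10 of 10 mice (exact sign-flip test, adjusted p = 0.00465 for each). IGHV4-1, at 11.8 ± 0.193, did not pass (adjusted p = 0.592 by the exact sign-flip test). Of 88 V names tested, 64.8% passed, and of the 5 genes 4 did.

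IGHV6-3 and IGHV15-2 kept their directions within each J gene. With IGHJ1, IGHJ2, IGHJ3 and IGHJ4 in turn, IGHV6-3 averaged 11.3, 8.91, 9.33 and 10.9 amino acids. IGHV15-2 averaged 13.8, 11.5, 12.1 and 13 amino acids, and the other V genes 12.9, 10.9, 11.3 and 12.6. IGHV4-1, whose overall mean did not pass, averaged 12.6, 10.86, 11.1 and 12.01 amino acids, below the other V genes with every J gene, where the smallest gap was to 10.93 with IGHJ2. These values by J gene were not tested. A CDR3 of 8 or fewer amino acids was found in 34.8% of IGHV6-3, 23.4% of IGHV6-6, 17.5% of IGHV13-2, 6.94% of IGHV4-1 and 5.65% of IGHV15-2 clonotypes, against 10.6% in the other V genes.

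**Figure D5:**
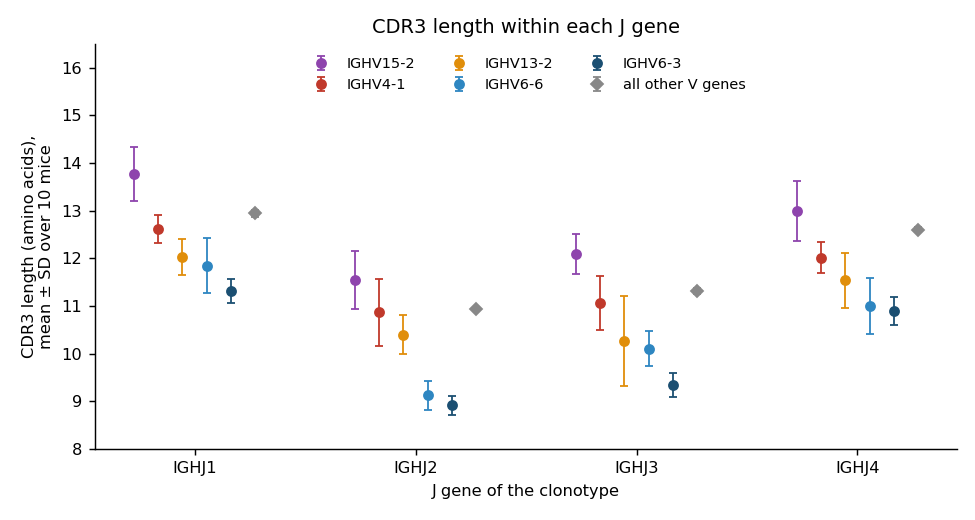
Mean CDR3 length (amino acids) of productive clonotypes by V gene and J gene, as means over the 10 mice with SD bars. With each J gene IGHV6-3 lies below all other V genes and IGHV15-2 above them.

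The 2 family 6 genes had fewer V-encoded and fewer added bases in the junction than the other V genes. V-encoded bases in the junction averaged 7.37 in IGHV6-3 and 7.89 in IGHV6-6, against 9.26 in the other V genes, and 8.81 in IGHV4-1, 9.27 in IGHV15-2 and 9.50 in IGHV13-2. Bases added at the joints, outside the V, D and J matches, averaged 5.99 in IGHV6-3, 6.02 in IGHV6-6, 6.66 in IGHV13-2, 6.97 in IGHV4-1 and 7.85 in IGHV15-2, against 7.34 in the rest. No D gene was called in 23.9% of IGHV13-2, 19.6% of IGHV6-3 and 18.1% of IGHV6-6 rearrangements, against 11.7% of the rest, and in 9.00% of IGHV15-2. IGHD1-1, a long D gene often used in the mouse, was called in 36.0% of IGHV15-2 rearrangements, against 25.8% of the rest. These are means over 10 mice and were not tested.

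In IgM the V regions of 4 of the genes had fewer mismatches to germline than the other V genes pooled. IGHV15-2 had 0.0538 ± 0.0191 mismatches per 100 bases, IGHV13-2 0.0781 ± 0.0429, IGHV6-6 0.0793 ± 0.0162 and IGHV6-3 0.0851 ± 0.0261, each below the 0.135 of the other V genes (exact sign-flip test, adjusted p = 0.00865 for IGHV13-2 and 0.00249 for the other 3). Such a call says little here, as 78 of 83 V names (94.0%) passed, 73 of them below the rest, and 5 of the 5 genes did, IGHV4-1 upward through its second form as given above. The median over V names was 0.0623, and of the 4 genes only IGHV15-2 lay below it. IGHV13-2 was above the pooled other V genes in 2 of 10 mice. The share of IgD among IgM and IgD clonotypes was lower than in the other V genes for IGHV13-2 (14.7% ± 3.80), IGHV6-6 (17.4% ± 2.69) and IGHV6-3 (18.3% ± 2.94), against 25.1% to 25.2%, in 10 of 10 mice each (exact sign-flip test, adjusted p = 0.0115). Of the 88 V names 35.2% passed, and of the 5 genes 3 did. With a count of at least 2 only, IGHV13-2 no longer passed for IgM mismatches nor IGHV6-6 for the IgD share. IGHV15-2, at 27.8% ± 5.81, and IGHV4-1, at 22.7% ± 3.09, did not pass.

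The share of IgG, IgA and IgE among classed clonotypes was 1.14% ± 2.11 in IGHV13-2, against a mean of 3.09% in the other V genes. It lay below the other V genes of the same mouse in 10 of 10 mice (exact sign-flip test, adjusted p = 0.0191). This rests on 7 switched clonotypes: 5.08% in each of anti-CTLA-4 replicates 2 and 3, and 1.25% in isotype replicate 3. The other mice had 0 among 51 to 109 classed clonotypes each, which bounds their shares only loosely. IGHV13-2 was 1 of the 5 genes to pass, against 14.8% of 88 V names. IGHV6-3 (1.77% ± 1.16), IGHV6-6 (2.12% ± 3.23), IGHV15-2 (2.58% ± 7.32) and IGHV4-1 (3.07% ± 2.14) did not. IGHV15-2 had switched clonotypes in 3 mice, all given anti-CTLA-4, with 1 of 86, 25 of 107 and 2 of 160 classed clonotypes in replicates 2, 3 and 4. Both of replicate 4 have the junction of the large clone of replicate 3 described below, and whether they are a separate case was not tested. In isotype mice 0 of 556 were switched over all 5 mice. Taken by mouse, a count of 0 allows up to 1.97% in isotype replicate 2 and up to 4.05% in isotype replicate 4, the lowest and highest of these limits. The difference rests on 1 mouse, where 27 IGHV15-2 clonotypes of IgG, IgA, IgM or no class belonged to the lineage of 1 clone. How many of the 25 switched clonotypes lie in that lineage was not counted. Between groups the exact permutation test gave p = 0.167. Without anti-CTLA-4 replicate 3, IGHV15-2 lay 2.53 percentage points below the other V genes (exact sign-flip test, adjusted p = 0.0316), and without isotype replicate 2 IGHV6-3 lay 1.64 below them (adjusted p = 0.0491).

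Across all 9 measures (the non-productive share, 4 J gene shares, CDR3 length, IgM mismatches, the IgD share and the switched share), 0% of V names passed the exact permutation test between anti-CTLA-4 and isotype mice. Between 1 and 11 names per measure had an unadjusted p under 0.05. With 5 mice per group the smallest exact p is 0.00794, and an adjusted p under 0.05 would have needed at least 14 names at that value, where at most 2 reached it, so these tests had little room to pass. Among 45 tests of the 5 genes, 3 had an unadjusted exact p under 0.05. The non-productive share of IGHV15-2 was 18.1% ± 2.24 in anti-CTLA-4 mice and 22.4% ± 1.84 in isotype mice (exact p = 0.0238, adjusted p = 0.615). IGHV6-3 used IGHJ1 in 14.2% ± 0.768 of clonotypes in anti-CTLA-4 mice and 12.9% ± 0.674 in isotype mice (exact p = 0.0317, adjusted p = 0.399). IGHV13-2 used IGHJ4 in 29.4% ± 3.11 in anti-CTLA-4 mice and 25% ± 2.82 in isotype mice (exact p = 0.0317, adjusted p = 0.524).

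By deposited counts, single large clones made up much of the share of these genes. The 9 genes held 0.485%, 2.38%, 2.5%, 1.56% and 11% of productive heavy-chain counts in anti-CTLA-4 mice, against 2.43%, 3.01%, 0.800%, 0.901% and 1.75% in isotype mice. The groups overlapped, with means of 3.58% ± 4.21 in anti-CTLA-4 mice and 1.78% ± 0.959 in isotype mice (SD, n = 5 each). Without the most abundant rearrangement of these genes in each mouse, the means were 1.05% ± 0.460 in anti-CTLA-4 mice and 1.18% ± 0.456 in isotype mice, and the direction turned. Within IgG the 9 genes held 0.145%, 2.71%, 2.48%, 2.23% and 22.9% of counts in anti-CTLA-4 mice, against 0.128%, 0.678%, 0.594%, 0.0166% and 0.397% in isotype mice. All anti-CTLA-4 mice except replicate 1 lay above every isotype mouse by this measure, which was not tested. Without the most abundant IgG rearrangement of these genes in each mouse, the groups overlapped, at 0.0163%, 0.203%, 0.310%, 0.802% and 0.668% in anti-CTLA-4 mice, against 0.0695%, 0.408%, 0.450%, 0.00416% and 0.289% in isotype mice. By IgG clonotypes, the main measure, the 9 genes also overlapped, at 2.91% ± 1.90 in anti-CTLA-4 mice and 2.84% ± 1.92 in isotype mice (SD, n = 5 each).

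The largest clone was an IGHV6-6 clone of anti-CTLA-4 replicate 5, whose junction, from the conserved cysteine codon to the tryptophan codon, is the first below. The second is that of an IGHV15-2 clone of anti-CTLA-4 replicate 3, followed by those of the largest IGHV6-3 clone, in anti-CTLA-4 replicate 2, and the largest isotype clone, of IGHV6-6 in replicate 1. Lower case is used throughout.
IGHV6-6 with IGHJ3, anti-CTLA-4 replicate 5: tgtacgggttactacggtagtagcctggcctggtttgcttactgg
IGHV15-2 with IGHJ1, anti-CTLA-4 replicate 3: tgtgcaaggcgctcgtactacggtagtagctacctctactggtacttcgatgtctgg
IGHV6-3 with IGHJ3, anti-CTLA-4 replicate 2: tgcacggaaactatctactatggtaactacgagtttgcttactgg
IGHV6-6 with IGHJ2, isotype replicate 1: tgtaccaggggggacttctttgactactgg

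The IGHV6-6 rearrangement of anti-CTLA-4 replicate 5 had 22453 counts, 9.74% of all productive heavy-chain counts of that mouse. Its IgG2c clonotype had 11790, its IgG2b clonotype 8704, its IgG1 clonotype 923 and its IgM clonotype 904. Each of these 4 had 0 V mismatches in its most counted sequence. Its lineage, joined from clonotypes with the same V and J genes and equally long junctions at 90% junction identity, held 30 clonotypes and 75 sequences, with 0 to 3 mismatches.

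The IGHV15-2 rearrangement of anti-CTLA-4 replicate 3 had 5126 counts (1.68%), of which IgG2c had 3009 and IgG2b 1933, again with 0 V mismatches. Its lineage held 27 clonotypes and 55 sequences. The same junction of 57 bases was found in anti-CTLA-4 replicate 4 with 131 counts, in IgG2c and IgG2b only, and how it came to be in both libraries was not tested. The IGHV6-3 rearrangement of anti-CTLA-4 replicate 2 had 2668 counts, of which IgG1 had 2477. In the same mouse an IGHV6-3 clone with IGHJ4 had 1733 counts, all IgA.

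In isotype mice the largest clones were of IgA. The IGHV6-6 clone of isotype replicate 1 had 3806 counts (1.48%), all IgA, and an IGHV6-6 clone with IGHJ3 in isotype replicate 2 had 3191 (1.26%), all IgA, each with 0 V mismatches. In the other 3 isotype mice the highest clonotype of these genes had 99 counts (IGHV6-3, IgA), 141 (IGHV4-1, IgM) and 317 (IGHV4-1, IgM). In the other 2 anti-CTLA-4 mice, replicates 1 and 4, it had 364 counts (IGHV4-1, IgG3) and 313 counts (IGHV4-1, IgM). The rearrangements of the IGHV6-6 clone with 3191 counts and of the IGHV4-1 clonotype with 141 counts were each also found in 1 other mouse. How this came about was not tested.

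Mutated lineages were smaller by counts. An IGHV6-3 lineage of isotype replicate 2 held 37 IgG or classless sequences with 250 counts, and its clonotypes had 5 to 10 V mismatches, 2.34 per 100 bases on average. Another IGHV6-3 lineage of that mouse held 33 IgG sequences with 3 to 6 mismatches. An IGHV6-3 lineage of IgG and IgM in anti-CTLA-4 replicate 5 held 12 sequences with 3 to 12 mismatches, and an IGHV4-1 lineage of IgG and IgM in isotype replicate 5 held 20 sequences with 0 to 8.

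Few rearrangements were shared between mice. In IGHV6-3, 34 of 4162 productive rearrangements occurred in at least 2 mice (0.817%), in IGHV15-2 8 of 1081 (0.740%), in IGHV6-6 11 of 1779 (0.618%), in IGHV13-2 3 of 721 (0.416%) and in IGHV4-1 5 of 1414 (0.354%), against 0.594% in the other V genes. The most widely shared was an IGHV6-6 rearrangement with IGHJ2 and a CDR3 of 5 amino acids, found in 1 anti-CTLA-4 mouse and 3 isotype mice with 1 to 4 counts each.
IGHV6-6 with IGHJ2, in 4 mice: tgtaccaggtgggactactgg

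Nearness in clonotype shares over the 10 mice was taken as the smallest root-mean-square difference of log2 shares, each centred on its mean. It was sought among 60 other V names with at least 50 clonotypes in every mouse. A name whose share varied little can be nearest by this measure without rising and falling with the gene. IGHV6-3 was nearest to IGHV5-4 (0.0850), IGHV15-2 to IGHV1-78 (0.103) and IGHV6-6 to IGHV2-9-1 (0.115). IGHV13-2 (0.152) and IGHV4-1 (0.154) were each nearest to IGHV6-3. The median over the 60 names was 0.148 for IGHV6-3 and 0.201 to 0.216 for the other 4 genes.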

How the data were processed

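The authors deposited 1 table of assembled sequences per mouse, with gene calls, alignments, a productive mark and a whole-number count per sequence, per the file headers; neither the labels nor the headers tell if it counts reads or molecules, or name the aligner or germline set. Libraries were made with the SMART-Seq Mouse BCR kit, per the labels' protocols. Clonotypes, rearrangements (V gene, J gene, junction) and lineages were built from these tables. Where a sequence had no junction, its whole sequence took the place of the junction. Joint V calls, 7.22% of heavy-chain sequences, kept a joint name.

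Clonotype numbers per V name were compared with edgeR 4.0.16 (TMM, filterByExpr, quasi-likelihood test), with DESeq2 1.42.0 as an alternative, in R 4.3.3. Other measures used an exact permutation test between groups and an exact sign-flip test of each gene minus all other V genes over 10 mice, two-sided, over V names with at least 10 in every mouse. p-values were adjusted by Benjamini-Hochberg over all V names, and V mismatches needed 200 aligned bases. Each mouse was 1 library.

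The genes were named by their families, and clones by the highest counts per gene and mouse and by the number of mice. Genes, lists and tests were chosen with earlier results of these data known. Gene symbols matched the RefSeq table for 113 of 113 single V names. The labels state no pairing, and same-numbered mice deviated together weakly (correlations 0.0111 to 0.219). For anti-CTLA-4 replicates 1 and 4 the most alike isotype mouse had the same number. Mice were not paired in the main tests, and these values cannot settle whether numbers pair mice. Scripts were tested on simulated data. Depth was 20951 to 41435 clonotypes per mouse; intervals are 95% Clopper-Pearson, and a count of 0 was bounded at 3 counts. Alternatives were count minimums, filters, scalings, shared rearrangements, the second IGHV4-1 form and leaving out each mouse.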

Additional observations from a re-analysis of the deposited data

Results flagged for a closer look

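Of 130 groups of 5 mice looked at for these genes, 14 had 1 mouse apart from the other 4 by Dixon's gap test; chance alone gives about 1 in 20. Anti-CTLA-4 replicate 3 had 5 of them: IGHV4-1 at 0.705% of IgM clonotypes (the others 0.469% to 0.515%), and IGHV15-2 at 0.515% of all clonotypes, 0.441% of IgM clonotypes, 1.75% of deposited counts and 23.4% switched clonotypes. For the last 3 of these the other 4 mice of the group lay at 0.368% to 0.388%, 0.0273% to 0.191% and 0 to 1.25%. Anti-CTLA-4 replicate 5 had IGHV6-6 at 10.1% of deposited counts (the others 0.0541% to 0.186%) and 9.89% switched IGHV6-6 clonotypes (the others 0 to 1.69%), and IGHV6-3 at 1.42% of clonotypes (the others 1.47% to 1.49%). The lineages of the large clones described above held 5226 of 5334 IGHV15-2 counts in anti-CTLA-4 replicate 3 and 22936 of 23325 IGHV6-6 counts in replicate 5. Their variants also count as clonotypes, so the IGHV15-2 and IGHV6-6 flags of these mice are not independent. Anti-CTLA-4 replicate 1 had an IGHJ2 share of 8.11% in IGHV4-1.

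Among isotype mice, replicate 4 had an IGHJ4 share of 20.9% in IGHV6-3, IGHV6-6 at 0.752% of clonotypes and an IGHJ3 share of 21.6% in IGHV15-2. Isotype replicate 3 had 5.88% switched clonotypes in IGHV6-6 (the others 0 to 1.32%). It had 1.25% in IGHV13-2, which is 1 clonotype of 80, where the other 4 isotype mice had none.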

How the results depend on the processing

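Between groups, the count of V names past the edgeR test was 0 over all classes and rose to 3 without the filter on low numbers, 3 with each rearrangement counted once and 4 with a replicate block, and ranged from 0 to 3 when each mouse was left out. In IgM it was 1, and 0 at a count of at least 2, 4 with a replicate block and 0 to 3 without 1 mouse each; in IgD it stayed 0 in each of these, and no described gene passed in any. With a count of at least 2, fewer V names passed against the other V genes: 38 for the non-productive share, 17, 21, 22 and 26 for IGHJ1 to IGHJ4, 10 for the IgD share and 6 for the switched share. The first has 68 at all counts, the others 39, 36, 47, 47, 31 and 13; the cause was not tested. Differences near 0 turned sign. The log2 fold change of IGHV13-2 was 0.13 at a count of at least 2 and 0.43 by deposited counts (IgM 0.20 at a count of at least 2), and by deposited counts IGHV6-3 was at 0.77 and IGHV6-6 at 1.56. Leaving out 1 mouse each gave, over all classes, -0.151 to 0.00821 for IGHV13-2, -0.0206 to 0.137 for IGHV4-1 and -0.176 to 0.0351 for IGHV6-6. In IgM it gave -0.110 to 0.0530 for IGHV13-2, -0.0810 to 0.0966 for IGHV4-1 and -0.0965 to 0.0155 for IGHV6-6, and in IgD -0.0797 to 0.139 for IGHV15-2 and -0.266 to 0.108 for IGHV6-6. Against the other V genes it gave -0.961 to 0.403 percentage points for IGHV6-6 with IGHJ1, -0.546 to 0.941 for IGHV13-2 with IGHJ4, and for switched clonotypes -2.53 to 0.0428 for IGHV15-2 and -0.513 to 0.495 for IGHV4-1. IGHV4-1 switched clonotypes differed by 0.416 at a count of at least 2 and 0.201 without rearrangements shared with another mouse, and its CDR3 by -0.0639 amino acids at a count of at least 2. The IGHV4-1 difference in IgM mismatches turned to -0.0636 without the second form and to -0.0517 with stop codons counted as non-productive, 2 alternatives chosen after seeing the data. So was leaving out the top rearrangement of each mouse, which moved the difference in the share of counts, 1.80, to -0.127 percentage points, and within IgG from 5.74 to 0.155. Of the values of single genes, 891 kept direction and side of the threshold, 15 lost the call, 2 gained it and 40 turned. Depth limits IGHV6-4, IGHV6-5, IGHV6-7 and IGHV16-1, which had too few clonotypes to test.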
